A study of Drosophila melanogaster with 2 samples.

Results

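The peaks described here are the 716 X chromosome peaks in the authors' thresholded list for CG12768, a protein with a MADF domain, in whole adult male Drosophila melanogaster. The rest of that list is 5325 peaks on the 4 large autosome arms and 25 on chromosome 4. Members were chosen by chromosome alone, and the summit of each was taken from the summit offset deposited with it. Chromatin immunoprecipitation with sequencing (ChIP-seq) was performed with an antibody against GFP on sonicated chromatin with a size range of 200-800, per the labels. All flies were males of 1 transgenic line with a stable CG12768 transgene carrying eGFP at the C terminus, and their age is given as unknown. The single group has 2 biological replicates, and no other genotype, treatment or control was compared. Peaks on the large autosome arms served as background, and chromosome 4 was left out of it. Whole animals were used, so the lists mix all cell types of the male, and the fusion protein comes from an insertion in addition to any untagged protein. The lists hold no read counts, so neither the depth of each library nor the sex of the flies could be checked from them.

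MADF domains bind DNA, and the family is named after Myb and the fly transcription factor Adf1. Male flies carry a single X and a pair of each autosome. In males the MSL complex, with the noncoding RNAs roX1 and roX2, spreads over the X, acetylates histone H4 and raises transcription of X genes. Fewer copies of the X and less protein on each copy cannot be told apart in these lists.

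Sequences at X summits are shown first, and those after the first 3 were picked because they hold a pattern described below. All are from the plus strand of dm6, as given by RefSeq, and are centred on the summit. The summits at ranks 2 and 3 on X, upstream of the glycolytic gene Gapdh2 (chrX:15867947-15868046) and in an intron of CG32772 (chrX:4910328-4910427), had a run of 14 bases in common, printed in capitals. That run was noticed on inspection. It occurs at 2 places on X, which are these 2 summits, and at 2 places on the large autosome arms, neither of them in the 200 bp at a summit. The fourth summit, in an exon of the noncoding RNA gene lncRNA:Vinr with CG4004 as the nearest protein-coding gene (chrX:12751266-12751365), did not hold it.
Gapdh2: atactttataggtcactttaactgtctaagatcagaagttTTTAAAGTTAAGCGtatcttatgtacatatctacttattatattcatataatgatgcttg
CG32772: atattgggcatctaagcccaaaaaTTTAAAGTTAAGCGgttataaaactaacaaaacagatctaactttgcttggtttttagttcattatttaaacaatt
CG4004: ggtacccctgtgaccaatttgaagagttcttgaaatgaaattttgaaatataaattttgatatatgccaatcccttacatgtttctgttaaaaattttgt

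A word of 6 bases, ACAGTG on one strand and CACTGT on the other, was common beside X summits and in some stood on both sides, reading toward the summit from each. The next 5 windows, of 200 bp, are the strongest X peaks with such a facing pair wholly inside the window. The word is in capitals. They lie in introns of CG1737 (chrX:11351446-11351645) and of Marf, which encodes the mitofusin of mitochondrial outer membranes (chrX:6366400-6366599), in an intron of NFAT, a Rel-type transcription factor gene (chrX:13640408-13640607), upstream of CG11151 (chrX:13739428-13739627) and in an intron of CHES-1-like, a forkhead transcription factor gene (chrX:7700299-7700498). The CHES-1-like window holds 2 further copies.
CG1737: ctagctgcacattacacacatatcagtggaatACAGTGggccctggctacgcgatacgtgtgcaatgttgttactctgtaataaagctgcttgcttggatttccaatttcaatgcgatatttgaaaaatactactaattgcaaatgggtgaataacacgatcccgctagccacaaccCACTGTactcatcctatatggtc
Marf: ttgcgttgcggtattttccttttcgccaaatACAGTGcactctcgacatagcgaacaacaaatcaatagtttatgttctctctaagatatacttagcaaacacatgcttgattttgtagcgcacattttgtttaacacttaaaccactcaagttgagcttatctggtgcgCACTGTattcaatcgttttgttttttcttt
NFAT: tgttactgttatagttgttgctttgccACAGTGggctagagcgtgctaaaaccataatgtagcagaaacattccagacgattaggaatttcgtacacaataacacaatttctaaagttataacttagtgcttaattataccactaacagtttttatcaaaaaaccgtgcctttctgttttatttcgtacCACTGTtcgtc
CG11151: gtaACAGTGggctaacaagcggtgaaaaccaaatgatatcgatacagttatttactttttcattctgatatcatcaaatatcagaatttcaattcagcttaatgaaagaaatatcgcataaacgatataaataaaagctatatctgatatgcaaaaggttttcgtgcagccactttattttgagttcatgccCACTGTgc
CHES-1-like: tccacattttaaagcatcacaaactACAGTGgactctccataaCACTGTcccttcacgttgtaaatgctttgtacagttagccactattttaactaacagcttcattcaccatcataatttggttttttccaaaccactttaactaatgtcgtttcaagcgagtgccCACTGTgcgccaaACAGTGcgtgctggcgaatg

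Known elements are shown by 3 more windows of 200 bp, the strongest not yet printed among those almost free of UTR bases. The DNA replication-related element (DRE, TATCGATA), a core promoter element of housekeeping genes, is in capitals at summits in introns of Rip11 (chrX:18645046-18645245) and Stt3A (chrX:21053188-21053387). Of the 29 X windows with a DRE, 25 were at promoters, so these intron windows are not typical. A GA repeat of 8 or more bases, the kind of sequence that GAGA factor and CLAMP bind, is in capitals upstream of a start of Ptpmeg2 (chrX:9640702-9640901), where the printed strand shows its complement.
Rip11: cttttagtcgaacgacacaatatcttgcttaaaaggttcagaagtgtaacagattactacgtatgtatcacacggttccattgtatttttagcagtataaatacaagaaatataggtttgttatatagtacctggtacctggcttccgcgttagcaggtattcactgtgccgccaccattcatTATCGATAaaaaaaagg
Stt3A: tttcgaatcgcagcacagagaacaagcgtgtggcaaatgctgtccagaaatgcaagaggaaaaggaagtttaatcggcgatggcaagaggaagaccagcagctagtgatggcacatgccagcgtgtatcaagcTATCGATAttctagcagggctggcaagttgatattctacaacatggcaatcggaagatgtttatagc
Ptpmeg2: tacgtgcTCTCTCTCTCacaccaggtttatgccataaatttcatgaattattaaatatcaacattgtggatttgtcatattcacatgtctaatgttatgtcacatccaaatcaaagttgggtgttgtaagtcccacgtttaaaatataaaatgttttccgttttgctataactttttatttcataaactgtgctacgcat

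X held a smaller share of the peaks than of the genome's length or genes. Its 716 peaks were 11.8% of the list (95% Wilson interval 11.0 to 12.6), while X makes up 17.6% of the length of the 6 arms and 15.7% of their protein-coding genes. The density was 30.4 summits per Mb on X and 48.9 on the large autosome arms, with each of those arms between 47.0 and 51.5. X density was 0.622 times that of the large autosome arms per Mb and 0.714 times per protein-coding gene. Replicate 1, through as many leading peaks of its own list, had 750 on X and a ratio of 0.655 per Mb. Replicate 2 had 729 on X and a ratio of 0.636. Both replicates thus gave a ratio below 1 and within a narrow range. The wider lists were less uneven. Among the 23934 pooled peaks that did not pass the authors' threshold, X had 3549, or 14.8%, and a density 0.814 times that of the large autosome arms. No test over samples was possible with 1 group, and intervals cover counting error only, since neighbouring peaks are not independent.

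**Figure D1:**
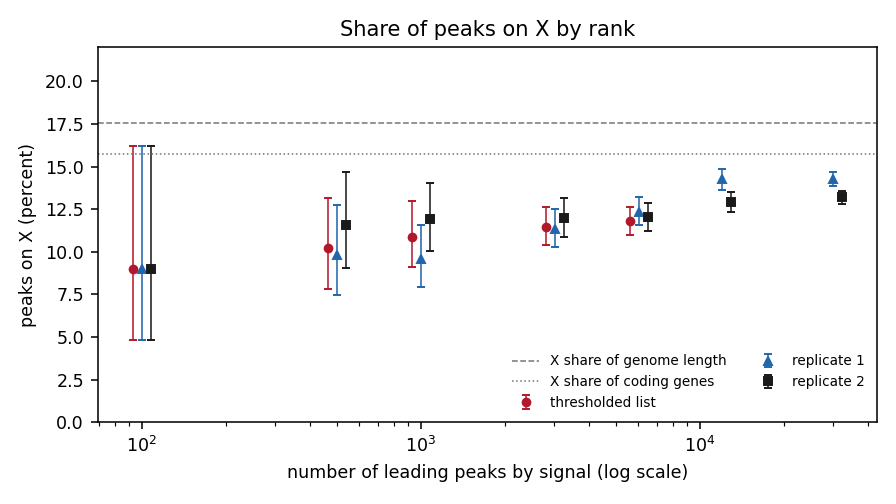
Share of peaks on X (percent, vertical axis) among the leading peaks by signal (log scale), for the thresholded list and for each replicate's own list, points set slightly apart for legibility. Bars are 95% Wilson intervals, and dashed and dotted lines mark the X share of genome length, 17.6%, and of protein-coding genes, 15.7%. All points lie below both lines, from 9% of the leading 100 upward.

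The strongest peaks were not concentrated on X. X held 9 of the leading 100 peaks, 51 of the leading 500 and 109 of the leading 1000. In replicate 1's own list these counts were 9, 49 and 96, and in replicate 2's they were 9, 58 and 119. The median signal, a value of the authors' peak caller without stated scale, was 218 for X peaks (quartiles 172 and 323, range 141 to 3036) and 223 for peaks of the large autosome arms (quartiles 171 and 337). The signal distributions of X and the autosomes overlapped over nearly their whole range.

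Summits ran over most of X, from position 255531 to 22491039 of its 23542271 bases, and were unevenly spread. The 23 full bins of 1 Mb held between 2 and 56 summits, with a median of 31. Bin 14, from 13 to 14 Mb, had 56 summits, bin 3 had 52 and bin 7 had 51. Bin 15 had 10, bin 21 had 12 and bin 23, near the centromere, had 2, and the last partial bin had 0. Bins rich in genes tended to hold more summits (Pearson r = 0.583 and Spearman coefficient = 0.633 over the 23 bins, a description, since bins share gene density and base composition). Bin 4, with 45 summits and 55 genes, and bin 15, with 10 summits and 88 genes, depart from that. The profiles of both replicates were close in most bins (Pearson r = 0.921 over the 23 bins, a description), with the widest difference in bin 17, at 46 summits in replicate 1 and 28 in replicate 2. In their own leading peaks bin 14 had 62 summits in replicate 1 and 55 in replicate 2, and bin 15 had 10 and 13.

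**Figure D2:**
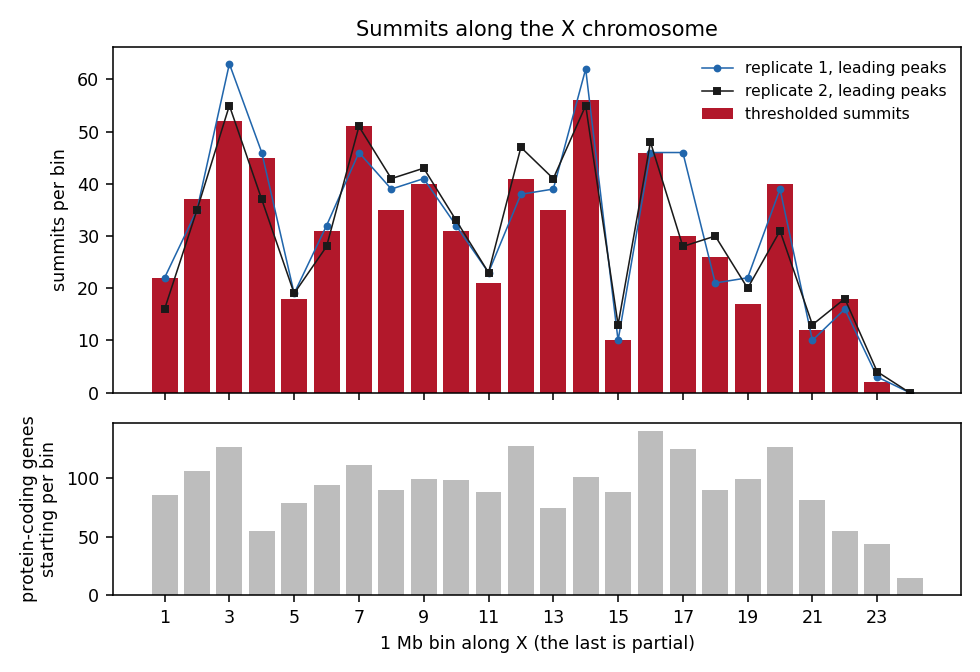
Upper panel: summits per 1 Mb bin along X in the thresholded list (bars) and in the same number of leading peaks of each replicate (lines). Lower panel: protein-coding genes starting in the same bins. The lines follow the bars, with the highest bar of 56 in bin 14 and 2 in bin 23.

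Between neighbouring summits the median distance was 7216 bp on X and 4485 bp on the large autosome arms. Stretches before the first and after the last summit of X were not counted as gaps. The longest gap between neighbouring X summits measured 819647 bp, from 21629724 to 22449371, with 23 protein-coding genes starting in it. The next 2 measured 583451 bp and 524233 bp, with 43 and 34 gene starts, so long gaps were not empty of genes. At the other extreme, 252 summits had no neighbour within 5000 bp, and the rest formed chains. The longest chain had 15 summits over 17285 bp, at Lsd-2, which encodes a perilipin of lipid droplets, and its neighbours dob, a lipase-like gene, Dbct, Cox17 and CG33177. CHES-1-like held a chain of 12 summits over 18368 bp. A chain of 10 summits covered Hex-A, a hexokinase gene, LPCAT and CG42395, and one of 9 lay in Mnt, whose product is a repressor that pairs with Max. Counted over whole gene bodies, the kinase gene Tlk held 15 summits in 69764 bp, while CHES-1-like held 12 in 27048 bp and Mnt 12 in 29872 bp. The juvenile hormone receptor gene gce held 9, and CG14434 and the corepressor gene Smr held 8 each. Closely spaced peaks may share fragments, and all counts here are of listed summits, not of independent sites. Some entries have the same interval with different summits, as at gce and dob. Matched each to the strongest listed peak that overlaps it, the 716 entries gave 672 different peaks.

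Promoters, taken as all bases up to 500 bp on either side of the start of any coding transcript, held 374 X summits, or 52.2% (48.6 to 55.9), in 11.0% of X bases. On the large autosome arms the promoter share was 55.8% (54.5 to 57.1). Introns held 265 X summits, or 37.0% (33.6 to 40.6), against 32.1% (30.9 to 33.4) on the autosome arms. Intergenic sequence held 32 X summits, or 4.47% (3.18 to 6.24), against 7.38% (6.71 to 8.11). Coding exons, 14.1% of X bases, held 3 X summits. The rest were 16 in other exons, 15 in 3′ UTRs and 11 in 5′ UTRs. The lower density on X was seen in each of the 3 main classes. The X to autosome ratio of summits per Mb of the same class was 0.613 in promoters, 0.639 in introns and 0.475 in intergenic sequence. Replicate 1 alone gave 0.649, 0.664 and 0.509 for these classes, and replicate 2 alone gave 0.626, 0.665 and 0.521.

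**Figure D3:**
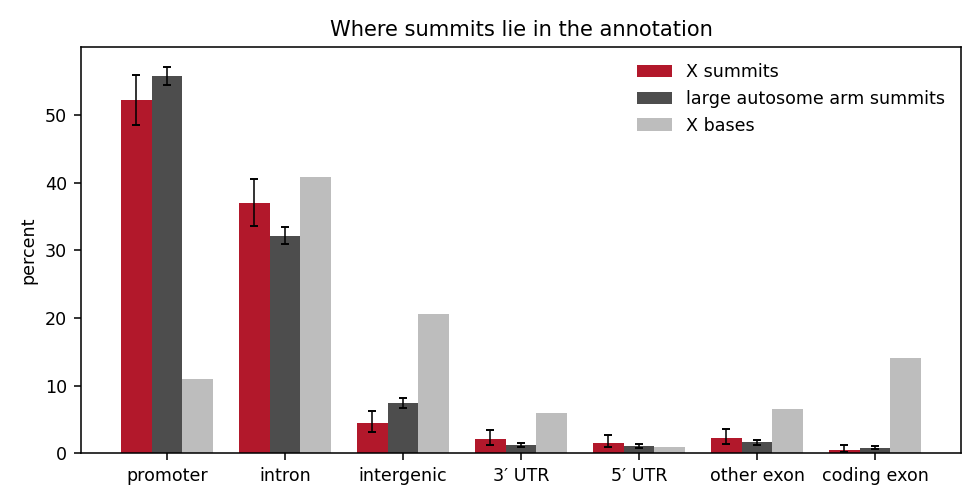
Percent of X summits, of large autosome arm summits and of X bases in each annotation class. Error bars are 95% Wilson intervals of the summit shares. Promoters hold 52.2% of X summits in 11.0% of X bases, and coding exons hold 3 summits in 14.1% of bases.

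Within the thresholded list, the promoter share of X summits was alike at all strengths. Promoter summits were 52 of the 100 strongest X peaks, 102 of the next 200, 106 of the 200 after those and 114 of the last 216. The 3549 weaker X peaks of the pooled list, which did not pass the threshold, had another mix. Promoters held 33.3% of them, introns 45.3% and coding exons 5.27%. Base composition moved with strength within the thresholded list, with a median GC of 37% in the 200 bp at the 100 strongest X summits and 43% in the last 216. Within promoters, the median X summit lay at -85 bp relative to the start and the median autosome summit at -50.5 bp, and 69.3% of X promoter summits (64.4 to 73.7) were upstream, against 65.4% (63.6 to 67.1). A summit near starts of several genes was less common on X, at 22.2% of promoter summits (18.3 to 26.7), against 30.8% (29.2 to 32.5). The difference between X and the autosomes in these shares was not tested.

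Among protein-coding genes of X, 390 of 2196 (17.8%, 16.2 to 19.4) had a summit within 500 bp of a start and are called bound here, against 3204 of 11669 (27.5%, 26.7 to 28.3) on the large autosome arms. The gap was widest at divergent genes, which start within 1000 bp of a gene on the other strand. Of these, 25.5% (22.5 to 28.9) were bound on X and 44.4% (42.9 to 46.0) on the autosome arms. Of genes not in such pairs, 14.03% (12.4 to 15.9) were bound on X and 18.9% (18.0 to 19.8) on the autosome arms. Divergent genes made up 32.5% of X genes and 33.6% of autosome genes, so their shares were close. In replicate 1's leading peaks 19.9% of X and 35.6% of autosome divergent genes were bound, and in replicate 2's 33.1% and 50.8%. With weaker peaks counted too, the shares were closer, and 51.9% of X genes and 56.4% of autosome genes had a summit of the 30000 pooled peaks near a start.

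The strongest X peak lay at Ugalt, which encodes the UDP-galactose transporter, with its summit at -20 bp and a signal of 3036, the fourth highest of the whole list. It ranked 4 in replicate 1 and 5 in replicate 2. Gapdh2 followed with a signal of 2004 at -148 bp and ranks of 14 and 48. The next, in the intron of CG32772 at 1276 bp from the start, had a signal of 1812 and ranks of 49 and 30. Among the 30 leading X peaks 16 were at promoters, 12 in introns, 1 in a 3′ UTR and 1 in an exon of a noncoding gene. They had 27 different genes as nearest. All 30 ranked better than 1000 in both replicates, with 671 the worst rank in replicate 1 and 870 in replicate 2. Since the 30 were chosen by a signal that combines both replicates, good ranks in each were favoured by that choice. Of the 30, 13 ranked better in replicate 1 and 17 in replicate 2.

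Metabolic genes opened the list with Ugalt and Gapdh2, and Hex-A had a signal of 981 at -120 bp. Zw, which encodes glucose-6-phosphate dehydrogenase of the pentose phosphate pathway, had an intron peak with a signal of 787 and a weaker promoter peak with 209. Lipid genes were represented by an intron peak of pdgy, an acyl-CoA synthetase gene, with a signal of 1551 at 3201 bp from the nearest start and ranks of 20 in replicate 1 and 121 in replicate 2. A peak in the 3′ UTR of Lsd-2 had a signal of 1010 and ranks of 63 and 483, and Seipin, a lipid storage gene, had a promoter peak of 862 shared with the tetraspanin gene Tsp3A, ranked 145 and 412. These last 3 peaks all ranked higher in replicate 1.

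Regulators of transcription among the 30 were bbx, an HMG-box gene with a promoter signal of 1297, and ph-p, which encodes the Polycomb group protein Polyhomeotic-proximal. The ph-p promoter peaks had signals of 1188, at 412 bp from a start, and 889, at -425 bp from another. CHES-1-like had an intron peak of 1009 and a promoter peak of 793, and the bZIP gene Atf3 a promoter peak of 820 that ranked 671 in replicate 1 and 146 in replicate 2. In gce the leading peak, in an intron, had a signal of 786. Signalling genes were Tlk, with an intron peak of 1568, norpA, the phospholipase C gene of phototransduction, with an intron peak of 1316, and Ptpmeg2, a tyrosine phosphatase gene with peaks of 965 and 937 upstream of 2 of its starts. Nervous system genes were elav, an RNA-binding protein gene of neurons, with a promoter peak of 941, and moody, a receptor gene of the blood-brain barrier, with 960. Other nearest genes were CG4004, MFS10 (a transporter gene, signal 1278), CG43736, CG3726, CG1737, CG9921 and CG2865, whose signal of 769 closed the 30.

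Over 2000 bp from every protein-coding start lay 169 X summits, or 23.6% (20.6 to 26.8), against 22.5% (21.4 to 23.6) on the autosome arms. The strongest was the summit in lncRNA:Vinr, with a signal of 1575 and ranks of 80 and 51 in replicates 1 and 2. It was followed by Tlk, pdgy, the Lsd-2 3′ UTR and the CHES-1-like intron. After these came a 3′ UTR summit of stas with 684, an intron summit near unc-119 with 640 and a second CHES-1-like intron summit with 581. Of the 8 strongest distal peaks, 5 lay in introns, 2 in 3′ UTRs and 1 in a noncoding exon.

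Gene lists set out with earlier results of these data known were counted against the 17.8% of all X genes, with no test. Cytoplasmic ribosomal protein genes had 12 of 15 X members bound, with 13 in replicate 1's own leading peaks and 11 in replicate 2's. Their autosome members had 56 of 77. The strongest were RpS10b (365 at -18 bp), RpS5a (363 at -33 bp), RpS19a (354 at -30 bp) and RpS28b (329 at 5 bp), all with summits within 100 bp of the start. The 3 unbound members, RpS14a, RpL37-1 and sta, had pooled peaks under the threshold, with signals of 114, 127 and 137. Ribosomal protein genes on X were thus bound in most cases, as were those of the autosome arms. Mitochondrial ribosomal protein genes had 0 of 11 X members bound, with 0 in replicate 1 and 2 in replicate 2, while 32 of 62 autosome members were bound. Pooled peaks, counted without the threshold, were present at 5 of the 11.

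Central carbon and nitrogen metabolism genes had 8 of 13 X members bound, with 10 in replicate 1 and 8 in replicate 2, led by Ugalt, Gapdh2, Hex-A and Fum1. Ugalt, a Golgi transporter gene, was put in the list with its peak already known. Fum1, which encodes fumarase, had its peak of 724 in the promoter it has in common with ND-ASHI, a subunit of respiratory complex I. Respiratory chain genes had 3 of 13 bound, ND-ASHI, ND-24 (243) and COX6B (192), with 2 in replicate 1 and 5 in replicate 2, against 20 of 78 on the autosome arms. Translation factor genes had 1 of 7, eIF4H1 (208), against 23 of 52. Proton pump and proteasome genes had 0 of 8, against 22 of 73, and replicate 2 alone had 1. Rab and autophagy genes had 3 of 17, Rab39 (280), Rab18 (265) and Atg8a (217), against 20 of 39. Over all genes the shares were 17.8% on X and 27.5% on the autosome arms, so a lower share on X is not particular to these lists. Their X members are few, and the difference was not tested.

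Chromatin and transcription genes had 7 of 18 X members bound, among them ph-p, Top1 (topoisomerase 1, 288), e(y)2 (266) and ph-d (261), with 5 in replicate 1's own leading peaks and 10 in replicate 2's. Muscle and cytoskeleton genes had 5 of 12, sqh (myosin light chain, 414), Act5C (209), flw (182), Moe (179) and Fim, with 3 in replicate 1 and 5 in replicate 2. Heat shock and secretory chaperone genes had 2 of 4, Hsc70-3 (203) and Sec61gamma (142), with 2 in replicate 1 and 1 in replicate 2. Ecdysone and clock genes had 3 of 8, the kinase gene sgg (431), the nuclear receptor gene usp (203) and the clock gene per (194), with 1 in replicate 1 and 3 in replicate 2. Developmental regulators had 2 of 32, sgg and sd (144), with N, arm and hop among the unbound, and had 2 in replicate 1 and 4 in replicate 2. Neuronal excitability and synapse genes had 2 of 15, elav and dnc (372), the phosphodiesterase gene of the memory mutant dunce, with 2 in replicate 1 and 3 in replicate 2. A list of classical visible mutants and trafficking genes had 1 of 14, cm (218), with 2 in replicate 1 and 5 in replicate 2. Only summits within 500 bp of a start count as bound, so members with thresholded peaks only in introns are among the unbound. Examples are norpA (intron peak of 1316), Hr4 (562) and Smr (439). These lists hold few genes, and most of their counts differed between the replicates.

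Dosage compensation and sex determination genes had 1 of 7 coding X members bound. Sxl, the switch gene of sex determination, had a promoter summit of 248 at 378 bp, ranked 3600 in replicate 1 and 2450 in replicate 2, and a stronger intron summit of 433, ranked 1813 and 721. The acetyltransferase gene mof was not bound. Neither roX1 nor roX2 had a thresholded summit within 500 bp of the gene. The nearest lay 5954 bp from roX1 and 2328 bp from roX2. The pooled list had weak summits at both, with signals of 100.7 at roX1 and 105 at roX2 and ranks of 9496 and 8995. Both signals lie below the 141 at which the thresholded list ended. The replicates differed at roX1, where a summit ranked 13503 in replicate 1 and 5342 in replicate 2. The latter is among replicate 2's leading peaks, taken as many as the thresholded list holds. A roX2 summit ranked 12529 in replicate 1 and 14941 in replicate 2.

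All 716 X peaks overlapped a peak of replicate 1's list by at least 1 base and 712 overlapped one of replicate 2's, but those lists hold 30000 peaks each and cover 7.20% and 6.60% of X. A stricter count asked for a match among an equal number of leading peaks of each replicate, which cover 1.22% and 1.14% of X, and 474 X peaks had one in both (66.2%, 62.7 to 69.6), against 68.0% (66.7 to 69.2) of autosome peaks. Neighbouring peaks can share a match, and the 716 matched 670 different peaks in replicate 1 and 668 in replicate 2. Signals of matched X peaks correlated with a Spearman coefficient of 0.395 over 712 peaks, a description over peaks chosen on their pooled signal. X and autosome peaks were thus matched in both replicates to a similar degree. The authors' threshold compares the replicates, so membership in the list itself favours a match in both.

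**Figure D4:**
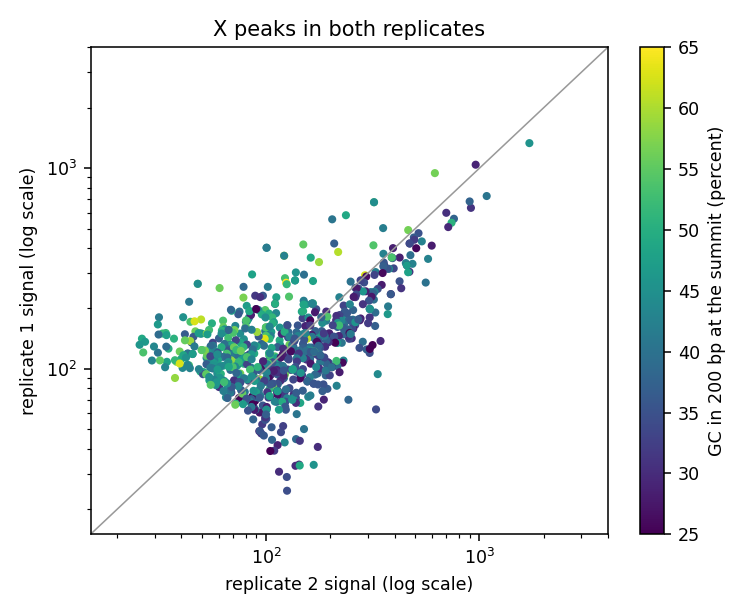
Signal of the strongest overlapping peak in replicate 1 (vertical, log scale) and replicate 2 (horizontal, log scale) for the 712 X peaks found in both lists. Colour gives the GC percent of the 200 bp at the summit, and the line marks equal values. Points rich in GC lie mostly above the line and AT-rich points mostly below it.

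Where the replicates differed, base composition moved with the difference. With peaks split into 4 GC ranges, the lowest, 17% to 34%, had the lowest ratio. Its median log2 ratio of replicate 1 to replicate 2 signal was -0.40. In the next ranges, 34.5% to 40% and 40.5% to 46%, it was -0.30 and 0.20, and in the last, 46.5% to 66%, it was 0.74. Autosome peaks in the same GC ranges gave -0.62, -0.20, 0.52 and 0.65. Whether GC accounts for the difference was not tested. Among the 100 leading X peaks the largest rank differences in favour of replicate 1 were at the zinc finger gene mamo (253 in replicate 1 and 3434 in replicate 2, GC 46%), per (304 and 2580, GC 61%) and Mnt (232 and 1888, GC 55%). Those in favour of replicate 2 were at the helicase gene Rtel1 (3242 in replicate 1 and 536 in replicate 2, GC 34.5%), CHES-1-like (2597 and 424, GC 29.5%) and CG34417 (1861 and 469, GC 37%). The first 3 were richer in GC than the last 3. The bound call of per rests on its weaker peak at -336 bp, since the stronger one, of 461 at -628 bp, lies outside the 500 bp, and both peaks match the same replicate peaks.

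The leading word of X summits was ACAGTG or its complement CACTGT, found by ranking all words of 6 bases by the excess of their share in the 200 bp at X summits over flanks centred 500 bp away. It was in 150 of 716 X windows, or 20.9% (18.1 to 24.1), and in 9.15% of their flanks (7.76 to 10.8), and in 7.67% of all 200 bp windows tiled along X. Its choice used these X windows, so the X excess is a description. The autosome summits were not used, and there the word was in 13.9% (13.03 to 14.9) of windows and 8.22% (7.71 to 8.75) of flanks and stood eighth of the 2080 words ranked in the same way. Longer words point to the same sequence. Words of 8 bases that contain its core led on X, with CACTGTGC in 6.84% of X windows and 1.61% of flanks, and CACAGTGG in 4.89% and 1.12%. The next X words of 6 bases, CAGTGG and CAGTGC, overlap it.

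Strong X peaks carried the word more often. It was in 35 of the 100 strongest X peaks (26.4% to 44.7%), in 26.5% of the next 200, in 17.5% of the 200 after those and in 12.5% of the last 216. Autosome peaks in the same ranges of signal held it in 16.5%, 15.4%, 12.8% and 12.3%. The word was thus about as common at weak X peaks as at weak autosome peaks. It was more common at strong X peaks than at autosome peaks of the same signal, a difference that was not tested. Choosing the word on these X windows favours a higher share on X, so this contrast too is a description. ACACTG, the word that led on the autosome arms, was in 14.7% of autosome windows and 14.5% of X windows. X introns held ACAGTG, the word chosen on X, in 23.4% of windows (18.7 to 28.9) and X promoters in 19.0% (15.3 to 23.3). X summits of replicate 1's leading peaks had it in 19.7% and those of replicate 2 in 21.1%, against 12.9% and 15.1% of autosome summits in the same 2 lists. In the 3549 X peaks that did not pass the threshold and were not used to choose the word, it was in 12.5% (11.4 to 13.6), against 9.59% of such autosome peaks. Some of these peaks lie beside thresholded ones.

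The word was less common at the summit itself than beside it. For the 300 strongest X peaks, the 50 bp bin centred on the summit had 5.33 copies per 100 peaks, while the bins centred at -100, 50 and 100 bp had 12.3, 11 and 10. At -300 and 300 bp there were 1 and 0.667. Over all 716 X peaks there were 4.47 copies per 100 peaks at the summit and 7.96 and 6.84 at -100 and 100 bp, against 3.74, 4.58 and 4.51 over all peaks of the autosome arms. The 2 shoulders lie on either side of the summit at about equal distance.

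Its direction depended on the side, a property that the choice of the word did not use since both strands were counted together. Between 25 and 175 bp from X summits, 194 of 278 copies (69.8%, 64.1 to 74.9) read ACAGTG toward the summit, that is, as ACAGTG on the left and CACTGT on the right. Among the 300 strongest X peaks 126 of 162 did (77.8%, 70.8 to 83.5), and among the remaining 416 peaks 68 of 116 (58.6%, 49.5 to 67.2). Between 300 and 500 bp from X summits 57 of 148 copies did (38.5%, 31.1 to 46.5). The same direction was seen at autosome summits, with 732 of 1232 near copies (59.4%, 56.6 to 62.1) and 446 of 940 far copies (47.4%, 44.3 to 50.6). Autosome peaks as strong as the leading 100 of X gave 71.3% (65.7 to 76.3) near the summit, beside 78.3% (67.2 to 86.4) for those 100. X promoters and introns gave 69.9% and 73.6%. Replicate 1's X summits gave 63.1% and replicate 2's 74.0%, so both had the majority in the same direction.

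**Figure D5:**
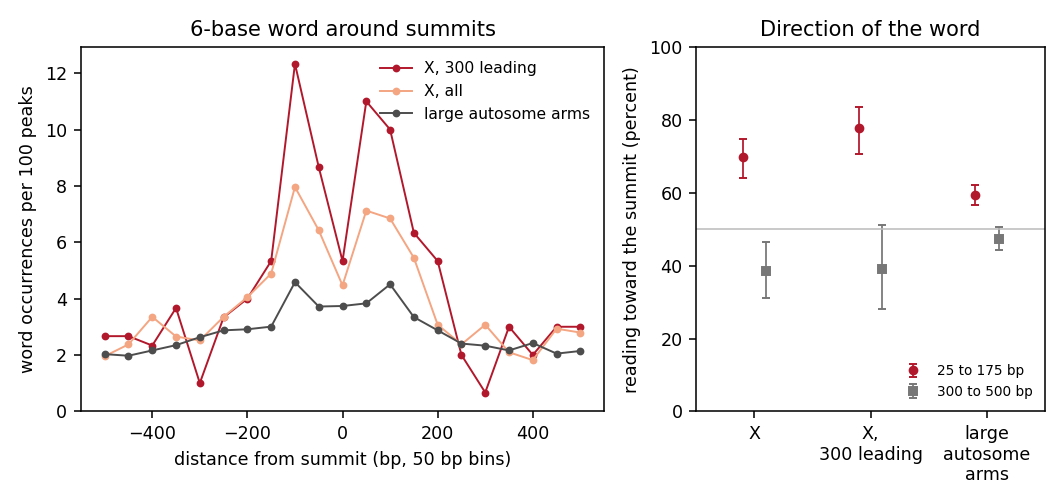
Left: copies of the 6-base word per 100 peaks in 50 bp bins around the summit, for the 300 strongest X peaks, all X peaks and peaks of the large autosome arms. Right: percent of copies that read toward the summit, for copies 25 to 175 bp and 300 to 500 bp away, with 95% Wilson intervals. Copies form shoulders at -100 and 50 to 100 bp, and near copies read toward the summit in 69.8% of cases on X, 77.8% at the 300 strongest and 59.4% on the autosome arms.

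Facing pairs, with at least 1 inward copy on each side between 25 and 175 bp, were found at 37 of 716 X peaks, or 5.17% (3.77 to 7.04), and at 81 of 5325 autosome peaks, or 1.52% (1.23 to 1.89). Of the 37, 14 were among the 100 strongest X peaks. Pairs need a copy on each side, and the word was chosen on X. Copies between 25 and 175 bp numbered 278 at the 716 X peaks and 1232 at the 5325 autosome peaks. Whether pairs differ beyond the number of copies was not tested, and pairs were not counted at autosome peaks of the same signal. The inner copies of a pair were between 78 and 290 bp apart, with a median of 167 bp. The strongest peak with a pair was that of ph-p at 412 bp from a start, with copies at -128 and 50 bp from the summit. CG1737, Marf, CHES-1-like and the nuclear receptor gene Hr4 had spacings of 145, 139, 142 and 144 bp, and the stronger Sxl intron peak had one of 167 bp. Weaker examples reached down to LIMK1, a kinase gene, with a signal of 169. The 5 printed windows show the facing arrangement because they were picked for it. A match is a description of the sequence and shows neither a binding site nor the protein bound there.

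The DRE was in 29 X windows, or 4.05% (2.83 to 5.76), against 0.768% of flanks and 0.703% of tiled X windows. It was in 25 of the 374 X promoter windows, or 6.68%, while windows centred on X coding starts held it in 9.44%. The summit excess over flanks was 5.27 times on X and 3.26 times on the autosome arms. The strongest X peaks with a DRE were CG11151 (618, which also has the facing pair), CG4558 (472), RpS10b and Pgd (337), all at promoters. GAGAGAGA was in 5.87% of X windows (4.37 to 7.83), 2.58% of flanks and 1.53% of tiled windows, with Ptpmeg2 the strongest. The core promoter motif GGTCACAC, bound by M1BP, was in 4 X windows, or 0.559% (0.217 to 1.43), and 1.19% of flanks. It was in 3 of the 374 X promoter windows, or 0.802%, while windows centred on X coding starts held it in 5.83%. At autosome summits it was in 1.84% (1.51 to 2.24), against 0.798% of flanks. CACACACA was in 9.22% of X windows and 8.94% of flanks. In all 13 motifs were searched, on both strands. GAGAG lies within the GA repeat and was in 29.5% of X windows and 26.9% of flanks. ATCGAT lies within the DRE and was in 9.92% of X windows and 7.75% of flanks. The E-box CACGTG was in 3.35% of X windows and 2.37% of flanks. For the TATA core TATAAA, the initiator-like TCAGT, runs of A, the repeat TATATATA, the run GGGGGG and the downstream-element-like AGACGTG, the share at X summits was between 0.945 times, for the TATATATA repeat, and 1.49 times, for the run of G, that of flanks.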

How the data were processed

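The authors deposited, for whole adult males of 1 transgenic line, 1 peak list per biological replicate, 1 pooled list and 1 thresholded list on dm6 and dm3. The replicate and pooled lists, of 30000 peaks each, were input to an irreproducible discovery rate threshold and include background, per the file headers and labels. Each deposited peak carries a signal from the authors' peak caller with no stated scale. The −log10 q-value column that the authors deposited is at its highest value in 4776 thresholded peaks. No source used here names the aligner, the caller or the threshold, and no control library was analysed here. Peaks were ranked by signal within a list, and depth is unknown.

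Summits on dm6 were set against the Ensembl release 115 annotation, whose X coding genes all have the same coordinates in the RefSeq assembly used for sequence (2196 of 2196). Summits at most 500 bp from the start of a coding transcript were promoter summits. Each other summit took the first class that held it, with UTRs and coding exons before other exons and introns before intergenic sequence. A replicate's rank for a peak is that of the strongest overlapping peak in its list. Motifs and words were searched on both strands in 200 bp windows, with flanks centred 500 bp away. Printed windows hold at most 30 annotated UTR bases. The word ranking, its direction and its pairs were examined after seeing the data. Shares carry 95% Wilson intervals, which cover counting error only, and no test was run. Members, lists and motifs were chosen with earlier results of these data known. Named genes are those nearest the 30 strongest X peaks and the 8 strongest over 2000 bp from a start, up to 4 leading members of each list, roX1, roX2 and the 6 peaks with the largest rank differences among the leading 100. Some of these genes are not reported here. Genes outside that rule, such as those in chains or with word pairs, were chosen after their values were seen. Alternatives were each replicate alone, the stronger peaks down to the median rank, the saturated q-value, other promoter distances and starts, the dm3 list, other overlap rules and other motif windows. Python 3.11.15, numpy 2.4.6, scipy 1.17.1 and matplotlib 3.10.9 were used, and the class, distance, overlap and word functions were tested on simulated data.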

Additional observations from a re-analysis of the deposited data

How the results depend on the processing

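The share of peaks on X was between 11.5%, for the peaks above the list's median rank, and 12.4%, for replicate 1's leading peaks, in the alternatives to the thresholded list, with 11.8% on dm3. It was higher in lists that include weak peaks, at 14.2% of the 30000 pooled peaks, 14.3% of all peaks of replicate 1 and 13.2% of all peaks of replicate 2. With one replicate left out it ranged from 12.02% to 12.36%, and the promoter share of X summits ranged from 50.9% to 53.4%. That share moved with the promoter distance, to 38.5% at 250 bp (46.3% on the large autosome arms) and 64.0% at 1000 bp (66.3%), since the distance defines the class. Above the median rank the promoter share was 51.1% on X and 60.4% on the autosome arms. The share of X genes bound, 17.8% in the report, moved under all alternatives and stayed below the autosome share in each. With one replicate left out it ranged from 15.9% to 20.1%. It was 9.06% with the peaks above the median rank (16.7% on the large autosome arms), 14.2% with peaks at the highest −log10 q-value (23.4%), 13.8% at 250 bp (23.1%), 20.8% at 1000 bp (31.4%), 14.5% when a summit counted for 1 start, the nearest (21.01%) and 11.8% with genes of all annotated transcripts (18.5%). The share of X peaks found in both replicates was 90.5% with summits within 100 bp (86.6% on the autosome arms) and 78.6% with overlap of at least 50% of both peaks (81.1%). Among motifs, the CACACACA ratio of summits to flanks was 0.784 in 100 bp windows, against 1.03 in 200 bp windows, and the GGTCACAC ratio was 1 in 100 bp windows. The cause was not tested. The ratio of the 6-base word, an alternative chosen after seeing the data, was 1.72 in 100 bp windows and 2.38 with flanks 1000 bp away. No paired analysis was possible because there is 1 group. Depth is unknown, so it could not be said which weak X peaks deeper libraries would have added.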
